A study of Mus musculus with 11 samples.

Results

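The interferon-stimulated genes are a set of 41 mouse genes whose transcription rises when a cell senses interferon. The members were found by matching the gene symbols of the count matrices to a fixed list. Of the 41 members, 40 were among the 31053 genes of the matrices, and Mx2 was not analysed here. They were counted in single nuclei of cortex from 11 mice labelled female, with 1 library for each mouse. Each count is a unique molecular identifier (UMI), a tag that stands for 1 captured RNA molecule. The matrices were raw UMI counts of spliced and unspliced transcripts. The study's notes name males alone for RNA-seq, but Xist, the RNA of the inactive X chromosome, had 791.8 to 1490 CPM (UMIs of a gene per 1000000 UMIs) over all nuclei of each mouse, and the Y-linked Ddx3y, Uty, Kdm5d and Eif2s3y had at most 1.41 CPM.

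The mice fell into 4 genotype groups. Of these, 4 non-transgenic mice (ikbkb+/+) were 9.8 to 10.85 months old. The 3 P301S mice (ikbkb+/+;P301S+) carried PS19, a transgene of human tau mutated at P301S, and were 9.15 to 10.75 months old. The 2 knockout P301S mice (ikbkb-/-;P301S+), 8.39 and 9.15 months old, also lacked Ikbkb, the gene of the kinase IKKβ that switches on NF-κB, in cells expressing Cx3cr1. The 2 active IKKβ P301S mice (ikbkbCA;P301S+), 10.85 and 9.8 months old, made an IKKβ that is always on, again in Cx3cr1-expressing cells. Per the study's methods, both changes were made with a Cx3cr1-CreERT2 allele, which is active in microglia and also in other Cx3cr1-expressing cells such as border macrophages. The controls were littermates without the Cre allele that received tamoxifen too, so they carried the floxed or silent Ikbkb alleles without recombination and both Cx3cr1 copies. Non-transgenic mice 1 and 2, P301S mice 1 and 2 and both knockout mice came from the floxed Ikbkb line. Non-transgenic mice 3 and 4, P301S mouse 3 and both active IKKβ mice came from the active IKKβ line, so genotype and line overlap in part, and in full between the knockout and active IKKβ mice.

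Type I interferons bind a receptor of IFNAR1 and IFNAR2 on most cells. The receptor's kinases JAK1 and TYK2 phosphorylate STAT2, which acts with IRF9 at the interferon-stimulated response element of the target genes. The products block viral replication at many steps, degrade foreign RNA, tag proteins with ISG15 or ubiquitin and raise antigen presentation. In brain, microglia and vascular cells are known to respond strongly, and interferon-responsive microglia are known from aged and diseased brain.

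The response element is a repeat of GAAA, and its core was read here as GAAANNGAAA on either strand. RefSeq promoters of GRCm38.p6, from 250 bases before to 50 after the start, were at hand for 33 of the 41 members. The core was present in 17 of the 33 member promoters (51.5%), against 1079 of 27025 genes (3.99%). Among members with enough counts to be tested in microglia it was in 8 of 17, and among the sparser members in 9 of 16. The stretches printed here are 120 bases each, all before the RefSeq start, with matches to the core in capitals. They are shown because they span the members from the least to the most abundant in microglia. Isg15 and Ifit1, the textbook targets, hold 3 and 2 matches but gave few UMIs. Trim30a, the most abundant member in microglia, Ddx60 and Slfn5 hold 1, 2 and 1. Rnf213, the second most abundant, holds none in this window. A match is a description of letters and not a bound site.
Isg15, chr4:156200826-156200945, minus strand: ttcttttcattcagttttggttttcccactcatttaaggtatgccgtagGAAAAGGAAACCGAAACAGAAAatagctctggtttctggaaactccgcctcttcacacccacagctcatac
Ifit1, chr19:34640739-34640858, plus strand: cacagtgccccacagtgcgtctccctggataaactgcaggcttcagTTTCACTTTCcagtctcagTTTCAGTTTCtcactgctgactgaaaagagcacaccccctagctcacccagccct
Trim30a, chr7:104465194-104465313, minus strand: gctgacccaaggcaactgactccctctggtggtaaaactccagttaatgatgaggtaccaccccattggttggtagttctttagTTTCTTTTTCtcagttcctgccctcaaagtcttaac
Ddx60, chr8:61927967-61928086, plus strand: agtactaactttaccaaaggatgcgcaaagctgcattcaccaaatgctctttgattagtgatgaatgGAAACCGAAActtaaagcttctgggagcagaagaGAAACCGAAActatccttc
Slfn5, chr11:82951892-82952011, plus strand: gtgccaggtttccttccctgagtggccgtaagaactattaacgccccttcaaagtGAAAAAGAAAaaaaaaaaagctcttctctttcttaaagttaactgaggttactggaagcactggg
Rnf213, chr11:119389979-119390098, plus strand: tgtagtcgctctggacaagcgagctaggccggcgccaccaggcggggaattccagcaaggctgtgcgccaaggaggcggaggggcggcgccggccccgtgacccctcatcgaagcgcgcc
In Isg15 the 3 matches overlap into 1 run. The Slfn5 stretch lies within the gene as the GENCODE annotation draws it, since that annotation starts the gene at 82951349. The other 5 stretches lie outside the annotated gene body. That of Rnf213 ends at 119390098, well before the annotated start at 119393100, so it does not cover the bases next to that start.

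Each library held between 7500 and 12315 barcodes, with 72007219 to 93205362 UMIs in total. After limits on genes and mitochondrial share and removal of doublets, 103065 of 114118 barcodes were used, and any pair of libraries shared at most 45 barcodes. Nuclei were clustered, and 14 of 15 clusters were named from marker genes, while 1 of 8003 nuclei with few UMIs stayed unnamed. The microglia-like cluster held 4484 nuclei, 193 to 732 in each mouse, with all 10 microglia markers raised. It gave 9461156 UMIs, of which 11442 came from members, and 387450 to 1638404 in each mouse. Levels are given as CPM, the count scaled to 1e6 UMIs of a cell type.

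Ikbkb itself checked the labels only in part. Its microglial level was 154, 122.8, 143 and 133.5 CPM in non-transgenic mice and 152.3, 134.5 and 140.2 CPM in P301S mice. It was 113 and 113.1 CPM in knockout mice and 165.4 and 150.5 CPM in active IKKβ mice. Both knockout mice lay below every other mouse, but the log2 fold change against P301S mice, -0.31 ± 0.17 (SE), missed the threshold in edgeR's quasi-likelihood test (adjusted p = 0.60). Reads near the 3′ end may lie outside the deleted part, and whether the active transgene's RNA is counted as Ikbkb was not tested.

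In microglia-like nuclei most member UMIs came from a few genes of moderate level and few from the textbook targets. Trim30a, a TRIM protein known to restrain Toll-like receptor signalling to NF-κB, averaged 170.7 CPM over the 11 mice and gave 1795 UMIs, 15.7% of those of all members. Rnf213, a giant ubiquitin ligase with an ATPase core, followed at 126.8 CPM, and Eif2ak2, the RNA-activated kinase PKR that halts translation, at 76.9 CPM. Herc6, the ISG15 ligase of the mouse, had 72.5 CPM, Parp14 and Parp9, which handle ADP-ribose marks, 71.4 and 70.7 CPM, and Sp100, a protein of nuclear bodies, 57.3 CPM. Long genes give more nuclear reads, so genes were also compared per length. Per kilobase of gene span, the highest mean levels were those of Irf9 (3.72 CPM per kb), Ifi27 (3.70), Trim30a (3.04) and the immunoproteasome subunit Psmb9 (3.03). At the low end, Isg15, the ubiquitin-like modifier, had 5 UMIs in all 4484 nuclei, Ifit1 had 12, Rsad2, which encodes viperin, 16, and Irf7 26. In all, 21 of the 40 members passed the count filter in microglia-like nuclei, and the other 19, with 5 to 103 UMIs each, held 7.17% of the member UMIs. The filter asks for counts in as many mice as the smallest group holds, so a member could pass through 1 genotype alone.

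Across cell types, members took the largest share of UMIs in endothelial-like nuclei, with microglia-like and fibroblast-like nuclei next and neurons last. The mean share over mice was 0.190% in endothelial-like, 0.107% in microglia-like and 0.0860% in fibroblast-like nuclei. It was 0.0449% in mural-like, 0.0370% in ependymal or choroid plexus-like (9 mice), 0.0329% in astrocyte-like, 0.0256% in oligodendrocyte precursor-like and 0.0170% in oligodendrocyte-like nuclei. In excitatory, inhibitory and striatal projection neuron-like nuclei it was 0.0108%, 0.00787% and 0.00484%. Among the 10 types with nuclei in every mouse, endothelial-like nuclei ranked first and microglia-like and fibroblast-like nuclei were within the first 3 in 11 of 11 mice. The endothelial values rest on 9 to 90 nuclei a mouse. Of the 40 members, 27 had their highest pooled level in endothelial-like nuclei and 11 in microglia-like nuclei, with 1 each in fibroblast-like and oligodendrocyte-like nuclei. Clusters were made from the same counts, so these levels are a description with no test.

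**Figure D1:**
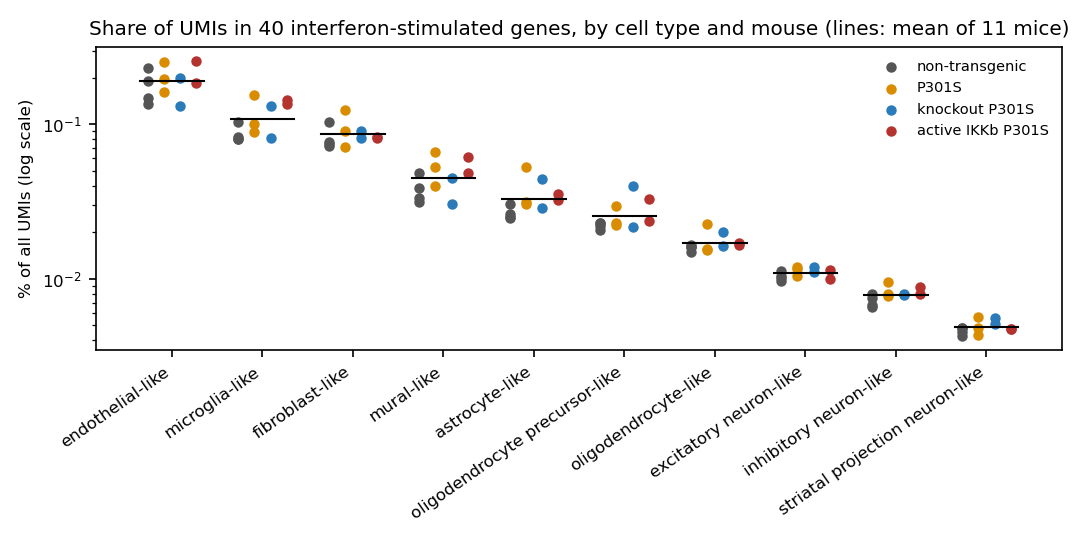
Share of all UMIs that came from the 40 members (percent, log axis) in the 10 named cell types with nuclei in every mouse, with 1 point for each mouse coloured by genotype and a line at the mean of 11 mice. Endothelial-like nuclei lie highest, at a mean of 0.190%, above microglia-like nuclei at 0.107%, and striatal projection neuron-like nuclei lie lowest at 0.00484%.

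The leading genes differed between the types as well. In endothelial-like nuclei Sp100 led at 235.7 CPM, followed by Slfn5, a member of the Schlafen family, at 148.5 CPM and Rnf213 at 128.1 CPM. Isg15 and Ifit1, with 5 and 12 UMIs in all microglia-like nuclei, reached 0 to 68.1 CPM and 0 to 56.7 CPM in endothelial-like nuclei of single mice. Ddx60, an antiviral helicase, averaged 116.9 CPM in endothelial-like nuclei and 55.4 CPM in microglia-like nuclei.

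By group means, the members' share of microglial UMIs was lowest in non-transgenic mice and highest in active IKKβ P301S mice. In non-transgenic mice it was 0.0808%, 0.0822%, 0.103% and 0.0797% (mean 0.0865% ± 0.0113 SD, n = 4). In P301S mice it was 0.0896%, 0.0999% and 0.155% (0.115% ± 0.0350, n = 3), and in knockout P301S mice 0.130% and 0.0818% (0.106% ± 0.0343, n = 2). In active IKKβ P301S mice it was 0.143% and 0.136% (0.139% ± 0.00475, n = 2). Both active IKKβ mice lay above all 4 non-transgenic mice. The P301S and knockout groups each held mice on both sides, with P301S mouse 3 above every other mouse and knockout mouse 2 within the non-transgenic range. The order of the means thus depends on single mice. Without knockout mouse 1 the knockout share was 0.0818%, below the non-transgenic mean of 0.0865%. Without P301S mouse 3 the P301S mice had 0.0896% and 0.0999%, both below non-transgenic mouse 3. Both still lay above non-transgenic mice 1, 2 and 4 and above the non-transgenic mean of 0.0865%. A share over members chosen for this set is given with no test. In these sums, fewer responding nuclei and less member RNA in each nucleus cannot be told apart.

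**Figure D2:**
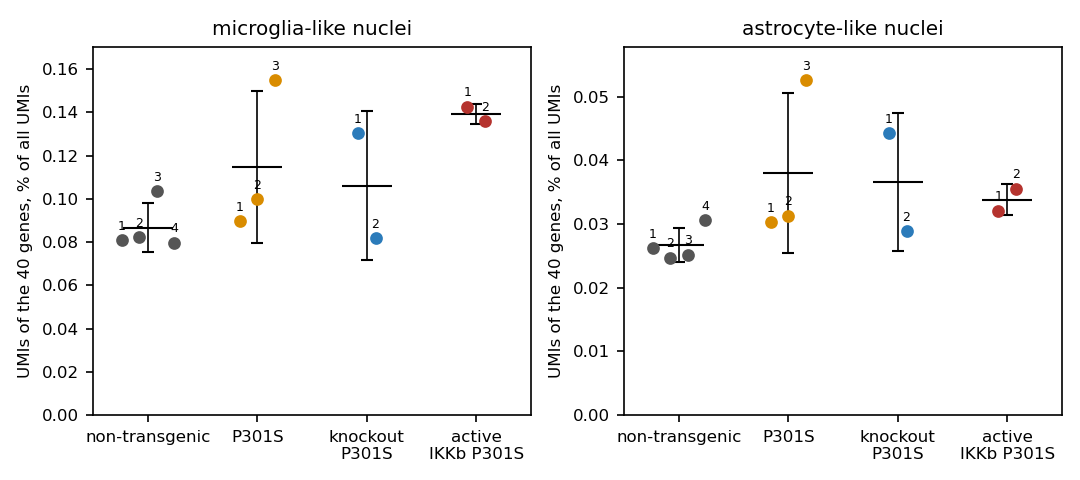
Member share of UMIs (percent, axes from 0) in microglia-like (left) and astrocyte-like nuclei (right), with 1 numbered point for each mouse, a line at the group mean and bars of 1 SD. In microglia-like nuclei the 2 active IKKβ mice sit at 0.143% and 0.136%, above the 4 non-transgenic mice at 0.0797% to 0.103%, and P301S mouse 3 is highest in both panels.

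The same mice also stood high outside microglia. P301S mouse 3 had the highest member share of all mice in 7 of the 11 types and knockout mouse 1 in 2. In astrocyte-like nuclei, the share was 0.0525% in P301S mouse 3 and 0.0442% in knockout mouse 1, while the other 9 mice lay between 0.0247% and 0.0355%. For several fold changes in microglia, the value without these mice follows the result. For member shares and percents of nuclei, the value of each mouse is given.

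Active IKKβ P301S against non-transgenic mice gave the only members that passed the threshold in microglia-like nuclei. These groups differ in the tau transgene and the Cre allele as well as in IKKβ, and the parts cannot be told apart here. Nlrc5, Sp100, Parp14 and Rnf213 rose, and 20 of the 21 tested members had a positive log2 fold change, with a median of 0.55. A gene was called at an adjusted p under 0.05 with a log2 fold change over 0.1 in size. By that rule 326 of 9009 genes were called (3.62%), 202 up and 124 down. At an unadjusted p under 0.05, 9 members were higher and 0 lower, against 13.4% of all genes in either direction. The median log2 fold change of all genes was -0.02.

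Nlrc5, the transactivator of MHC class I genes, had 5.05, 8.90, 31.1 and 2.81 CPM in non-transgenic mice. It had 56.2 and 87.6 CPM in active IKKβ P301S mice, which lay above all 4. The log2 fold change was 2.62 ± 0.55 (SE; edgeR quasi-likelihood test, adjusted p = 0.0069). The P301S mice had 15.5, 14.8 and 78.1 CPM, and the knockout mice 32.7 and 14.4 CPM, so that P301S mouse 3 alone reached the range of the active IKKβ mice.

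Sp100 had 25.2, 33.8, 47.7 and 19.7 CPM in non-transgenic mice and 78.7 and 89.6 CPM in active IKKβ P301S mice. The groups did not overlap, and the log2 fold change was 1.40 ± 0.36 (edgeR, adjusted p = 0.029). In P301S mice it had 33.6, 62.3 and 119.5 CPM, and in knockout mice 87.1 and 32.9 CPM. Both of these groups overlapped the other 2. Against P301S mice, with tau in both groups, the log2 fold change of Sp100 in active IKKβ mice was 0.04 ± 0.32.

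Parp14, a mono-ADP-ribosyltransferase, had 65.6, 48.1, 56.0 and 46.4 CPM in non-transgenic mice and 111.7 and 90.3 CPM in active IKKβ P301S mice. The rise was 0.89 ± 0.23 on the log2 scale (edgeR, adjusted p = 0.027). Its partner enzymes Parp9 and Dtx3l, which act as a complex, had log2 fold changes of 0.57 ± 0.23 and 0.30 ± 0.35 with adjusted p of 0.24 and 0.80.

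Rnf213 had 75.7, 101.5, 120.2 and 122.3 CPM in non-transgenic mice, 87.8, 114.8 and 158.2 CPM in P301S mice and 151.5 and 80.2 CPM in knockout mice. In active IKKβ mice it had 184.9 and 197.4 CPM, above every other mouse. The log2 fold change against non-transgenic mice was 0.81 ± 0.21 (edgeR, adjusted p = 0.034).

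**Figure D3:**
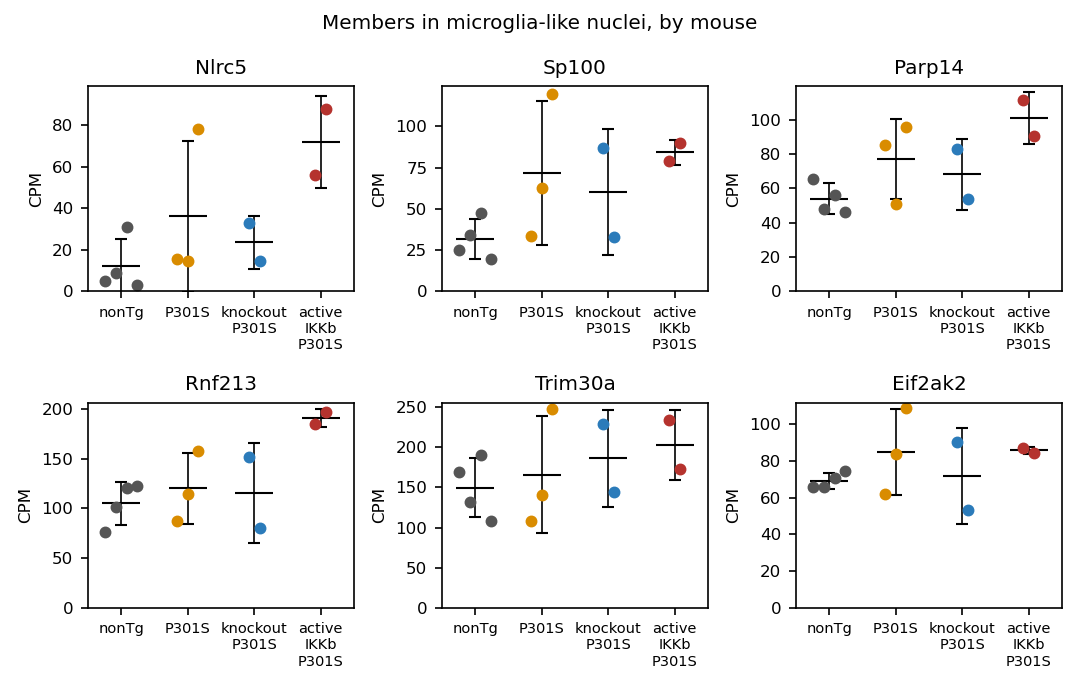
Level in microglia-like nuclei (CPM, axes from 0) of the 4 called members and of Trim30a and Eif2ak2, with 1 point for each mouse by genotype, a line at the group mean and bars of 1 SD that end at 0. Nlrc5, Sp100, Parp14 and Rnf213 are higher in both active IKKβ mice than in all 4 non-transgenic mice, and P301S mouse 3 stands apart from the other P301S mice in Nlrc5 (78.1 CPM) and Sp100 (119.5 CPM).

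The transcription factors Stat2 and Irf9, partners in the complex that binds the response element, had log2 fold changes of 0.52 ± 0.26 and 0.61 ± 0.29 in the same comparison (edgeR, adjusted p 0.39 and 0.37). Ifi27, at 0.73 ± 0.32 (adjusted p = 0.29), did not pass either. Ddx58, which encodes the sensor RIG-I, had 46.4 and 50.2 CPM in active IKKβ mice, against 27.8, 21.4, 60.1 and 22.5 CPM in non-transgenic mice. Non-transgenic mouse 3 thus lay above both. Gbp7, a guanylate-binding GTPase, was the tested member with a negative value, at -0.53 ± 0.34. The 4 calls depended on the tool and on which mice and nuclei were used. With DESeq2 Sp100 and Rnf213 passed, beside 255 of 9009 genes, while Nlrc5 (2.58, adjusted p = 0.21) and Parp14 (0.89, adjusted p = 0.064) did not. With doublets kept Nlrc5 alone passed, beside 245 of 9585 genes, and with sums thinned to 1000 UMIs a nucleus Nlrc5 and Rnf213 did, beside 218 of 6983 genes. Leaving out 1 mouse at a time left 1 to 5 members and 160 to 408 genes called, with Nlrc5 alone without active IKKβ mouse 1 or non-transgenic mouse 2 and Parp14 alone without active IKKβ mouse 2. With the breeding line as a covariate Nlrc5 alone passed, at 2.01 (adjusted p = 0.015), beside 193 genes. Within the active IKKβ line the tests called Nlrc5, Sp100 and Slfn2, beside 197 of 11839 genes.

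P301S against non-transgenic mice gave positive log2 fold changes in 18 of 21 tested members but no call. The median was 0.36, against -0.01 for all genes. With edgeR 0 members and 4 of 9009 genes (0.0444%) were called, and with DESeq2 0 members. At an unadjusted p under 0.05, 8 members were higher and 0 lower, against 8.3% of all genes. The lowest p values were those of Sp100 (1.37 ± 0.35, adjusted p = 0.15), Nlrc5 (1.97 ± 0.58, 0.23) and Slfn5 (2.03 ± 0.60, 0.24). Without P301S mouse 3, Sp100 fell to 0.70 (adjusted p = 0.99) and Nlrc5 to 0.42 (adjusted p = 1.0), and Slfn5 did not reach the count filter. Parp14 (0.56 ± 0.23, adjusted p = 0.50) and Stat2 (0.61 ± 0.25, adjusted p = 0.51) were also among the 6 lowest, at 0.31 and 0.48 without that mouse.

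Ifih1, which encodes the long-RNA sensor MDA5, was close to even among P301S mice. It had 38.7, 36.1 and 40.7 CPM there, above the 15.1, 32.0, 18.7 and 18.3 CPM of non-transgenic mice. The log2 fold change was 0.84 ± 0.28 (edgeR, adjusted p = 0.35), and the groups did not overlap. In knockout P301S mice it had 29.3 and 16.4 CPM and in active IKKβ P301S mice 28.1 and 31.4 CPM, so both groups fell within the non-transgenic range. Herc6 had 90.3, 80.4 and 86.1 CPM in P301S mice and 40.4, 60.5, 60.1 and 77.3 CPM in non-transgenic mice, again without overlap, at 0.46 ± 0.20 (adjusted p = 0.52).

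Other members differed between the P301S mice. Slfn5 had 2.58, 19.7 and 19.4 CPM in the 3 P301S mice and 1.78 to 5.05 CPM in non-transgenic mice. Oasl2, a 2′-5′-oligoadenylate synthetase-like protein, had 12.9, 4.92 and 18.02 CPM against 0 to 10.4 CPM. Without P301S mouse 3 the median log2 fold change of the members fell to 0.11, with 13 of 20 positive. This mouse was the only P301S mouse of the active IKKβ line.

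Knockout P301S against P301S mice gave no called member, and 15 of the 21 tested members had a negative log2 fold change. The median was -0.14, with 6 of 21 positive, against -0.01 for all genes. With edgeR 0 members and 0 genes were called (0.0%), with DESeq2 0 members, and at an unadjusted p under 0.05 there were 0 members against 8.72% of all genes. Ifih1 had the lowest p, at -0.63 ± 0.31 (adjusted p = 0.58), followed by Nlrc5 at -0.76 ± 0.55 (0.70) and Herc6 at -0.30 ± 0.22 (0.71). Irf9 (-0.41 ± 0.34), Eif2ak2 (-0.22 ± 0.23) and Ddx58 (-0.34 ± 0.37) came next. The median turned with single mice, to 0.22 without P301S mouse 3 and to -0.71 without knockout mouse 1. Nlrc5 turned to 0.52 with the breeding line as a covariate, to 0.19 with age and to 0.79 without P301S mouse 3.

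Knockout P301S against non-transgenic mice likewise called 0 members and 0 genes with edgeR (0.0%) and 0 members with DESeq2. Of the 21 members 16 were positive, with a median of 0.21. At an unadjusted p under 0.05, 4 members were higher, against 4.66% of all genes. Sp100 (1.09 ± 0.40), Stat2 (0.67 ± 0.28), Slfn5 (1.62 ± 0.68) Oasl2 (1.62 ± 0.77), Nlrc5 (1.21 ± 0.69) and Parp14 (0.42 ± 0.25) had an adjusted p of 0.95 each. Stat2 had 70.3 and 32.9 CPM in the 2 knockout mice, the first above and the second within the 26.7 to 42.9 CPM of non-transgenic mice. Without knockout mouse 1 the median of the members was -0.04, with Stat2 at -0.097, Oasl2 at -0.99, Sp100 at 0.079, Slfn5 at 0.13, Nlrc5 at 0.34 and Parp14 at 0.0038.

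Active IKKβ P301S against P301S mice compares groups that both carry tau. The active IKKβ mice also carry the Cre allele, and P301S mice 1 and 2 are of the floxed line. Active IKKβ and the Cre allele cannot be told apart here, and line overlaps with genotype in part. The members lay on both sides of 0, with 13 of 21 positive and a median log2 fold change of 0.04. With edgeR 0 members were called, while 134 genes were (1.49%), and with DESeq2 0 members. At an unadjusted p under 0.05, 2 members were higher, against 8.72% of all genes. These were Rnf213, at 0.58 ± 0.22 (adjusted p = 0.31), and Ddx58, at 0.65 ± 0.30 (0.53). Parp14 (0.33 ± 0.22), Ifih1 (-0.40 ± 0.27), Nlrc5 (0.65 ± 0.44) and Tap1 (0.50 ± 0.35) came next, with adjusted p of 0.80 to 0.83. Rnf213 and Ddx58 had levels in the 2 active IKKβ mice above all 3 P301S mice, with Ddx58 at 25.8, 37.7 and 28.0 CPM in the latter. Without P301S mouse 3 the median was 0.58, and Nlrc5 passed the threshold at 2.20 (adjusted p = 0.018), as did 200 of 8733 genes in that fit. Tap1 moved to 1.15 (adjusted p = 0.29). Within the active IKKβ line, where P301S mouse 3 is the only control, the difference in member share was -0.0156 percentage points.

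Active IKKβ P301S against knockout P301S mice also called 0 members with edgeR, against 153 genes (1.7%), and 0 members with DESeq2. Of the 21 members 16 were positive, with a median of 0.26, and 4 were higher at an unadjusted p under 0.05, against 13.2% of all genes. Ddx58 had 24.3 and 22.6 CPM in knockout mice, less than in either active IKKβ mouse (0.99 ± 0.35, adjusted p = 0.18). Nlrc5 (1.41 ± 0.54, 0.23), Rnf213 (0.61 ± 0.24, 0.26) and Tap1, a subunit of the peptide transporter for MHC class I (0.89 ± 0.41, 0.36), followed, then Irf9 (0.66 ± 0.33, 0.41) and Parp14 (0.47 ± 0.25, 0.44). Both knockout mice were of the floxed line and younger than both active IKKβ mice, which were of the active IKKβ line, so genotype, line and age cannot be told apart among these 4 mice. With the breeding line as a covariate, set by the control mice of both lines, Nlrc5 turned to -0.53 (adjusted p = 0.87). The 6 comparisons share groups, so they are not independent of each other. Leaving out knockout mouse 1 moved the median to 1.05.

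**Figure D4:**
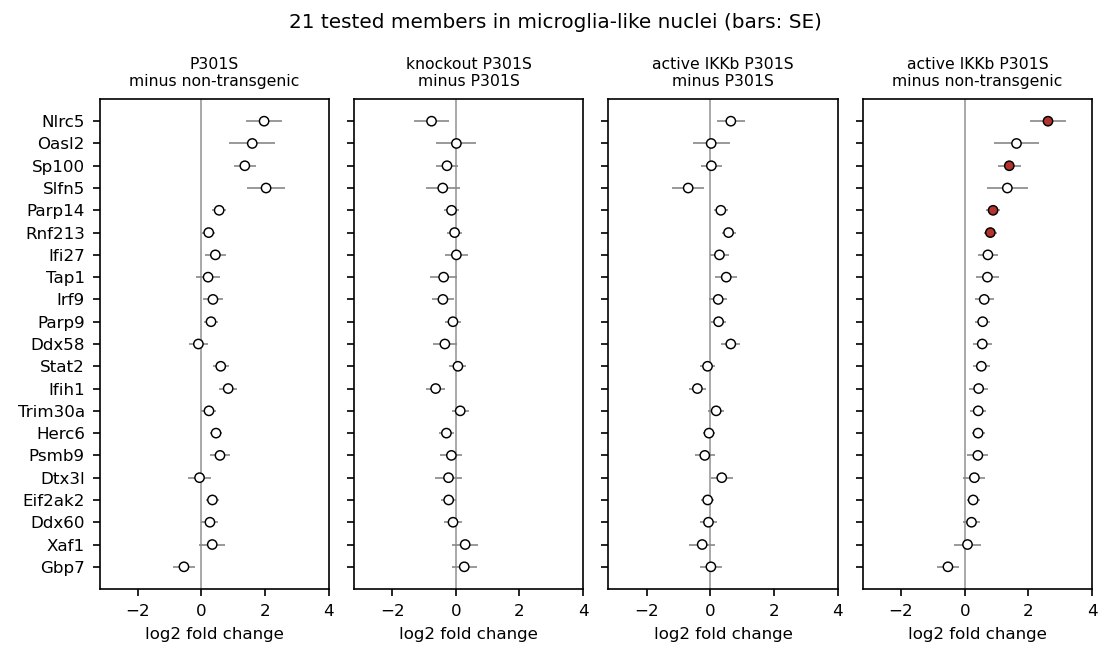
Log2 fold change with its standard error (horizontal bars) for the 21 tested members in microglia-like nuclei, in 4 of the 6 comparisons, with called members filled. The 4 called members stand in active IKKβ P301S against non-transgenic mice, led by Nlrc5 at 2.62.

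Of the 19 members below the count filter, several had higher levels in some or all of the mice with the tau transgene. Usp18, the protease that removes ISG15, had 0, 1.78, 4.15 and 2.81 CPM in non-transgenic mice and 7.74, 11.5 and 22.7 CPM in P301S mice. The ranges did not overlap, but Usp18 had 95 UMIs over the 11 mice, so its lower values rest on few UMIs. It had 13.4 and 4.11 CPM in knockout mice and 9.16 and 8.70 CPM in active IKKβ mice. Mx1, a dynamin-like GTPase that blocks influenza viruses, had 1.41 to 6.22 CPM in non-transgenic mice and was highest in knockout mouse 1, at 21.8 CPM. Oas1a, which makes the 2′-5′-oligoadenylates that activate RNase L, had at most 2.81 CPM in P301S mice 1 and 2 and the non-transgenic mice. It had 13.4 CPM in P301S mouse 3, 10.05 CPM in knockout mouse 1 and 10.99 and 10.7 CPM in active IKKβ mice. These genes were below the count filter of the comparisons above. With no count filter, 40 members were tested and 4 passed in P301S against non-transgenic mice, against 118 of 20591 genes (0.573%) in that fit. They were Sp100, Usp18, Nlrc5 and Slfn5. Of these, Sp100, Nlrc5 and Slfn5 had also been tested with the filter, at log2 fold changes of 1.37, 1.97 and 2.03. With no filter these were 1.39, 2 and 2.06, but the SE fell from 0.35, 0.58 and 0.60 to 0.23, 0.32 and 0.53. The filtered values of Sp100 and Nlrc5 were lower without P301S mouse 3, as given above. In active IKKβ P301S against non-transgenic mice, the fit with no count filter called 6 members (2.57% of genes). They were Nlrc5, Sp100, Parp14, Rnf213, Slfn2 (edgeR, adjusted p = 0.0066) and Oas1a (adjusted p = 0.012). That fit also called Sp100 in knockout P301S against non-transgenic mice (0.16% of genes) and Nlrc5 in active IKKβ P301S against knockout P301S mice (1.83%). In astrocyte-like nuclei, 4 members were called with no count filter in P301S against non-transgenic mice (0.501%).

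To see whether member RNA lay in few or many nuclei, microglia-like nuclei were thinned to 1000 UMIs each, which 4423 of them reached. In non-transgenic mice 7.02%, 7.99%, 8.33% and 6.69% of nuclei held at least 3 member UMIs (mean 7.51%). The P301S mice had 3.97%, 8.33% and 17.4% (9.91%). The knockout mice had 14.8% and 6.91% (10.8%) and the active IKKβ mice 12.7% and 15.6% (14.1%). Both active IKKβ mice lay above all 4 non-transgenic mice, and P301S mouse 3 above all others. The P301S and knockout means depend on P301S mouse 3 and knockout mouse 1. The other mice of these groups, at 3.97%, 8.33% and 6.91%, lay within or below the 6.69% to 8.33% of non-transgenic mice. In excitatory neuron-like nuclei the share was 0.0403%, in astrocyte-like 1.23% and in endothelial-like 29.5%. Without thinning the microglial group means were 22.6%, 23.7%, 34.5% and 50.3%, in the same order of genotypes, at median depths of 1440 to 2471 UMIs a nucleus. The unthinned values also carry these differences in depth.

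A small number of microglia-like nuclei were rich in members. With at least 10 member UMIs of 1000, a limit set after the values were seen, 28 of 4423 nuclei (0.633%) held 9.58% of the thinned member UMIs. They came from 8 mice, with 0, 0, 1 and 2 such nuclei in non-transgenic, 2, 1 and 5 in P301S, 4 and 0 in knockout and 8 and 5 in active IKKβ mice. These counts are not rates, since the mice differed in microglia-like nuclei before thinning. There were 231, 289, 273 and 331 in non-transgenic and 262, 333 and 732 in P301S mice. Knockout mice had 554 and 193 and active IKKβ mice 692 and 594. The richest nuclei had 43 member UMIs in P301S mouse 3, 31 in P301S mouse 1 and 29 in P301S mouse 2. The highest in non-transgenic mice had 11. In P301S mouse 1, 2 nuclei held 23.5% of its member UMIs.

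Members differed in how much of their RNA lay in the rich nuclei. Rsad2 had 9 UMIs in the 28 nuclei and 1 in all the others, Oasl1 4 and 0, and Ifi44 6 and 2. Irf7, the amplifier of the interferon response, had 6 and 7, Mx1 17 and 29 and Oasl2 17 and 35. Isg15 had 0 and 3, Ifit1 1 and 3, Ifit2 4 and 15 and Ifit3 4 and 11. Most UMIs of these 4 lay in the other nuclei, as did those of Irf7, Mx1 and Oasl2. Ifit1, Ifit2 and Ifit3 made up 0.199%, 0.797% and 0.797% of member UMIs in the rich nuclei. In the other nuclei they made up less, at 0.0633%, 0.317% and 0.232%. Trim30a, in contrast, had 58 in the rich nuclei and 754 in the others, and Rnf213 62 and 539. Since the nuclei were chosen by their summed member UMIs, these counts are a description. Without the rich nuclei the mean number of member UMIs a nucleus was 0.838, 0.854, 0.966 and 0.740 in non-transgenic, 0.704, 0.957 and 1.35 in P301S, 1.19 and 0.872 in knockout and 1.20 and 1.23 in active IKKβ mice. The active IKKβ mice still lay above all non-transgenic mice.

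RNA of other cell types in the microglia-like sums was measured with marker lists. Nuclei with border macrophage markers made up 0.14 to 4.0% of the microglia-like nuclei and held 0.13 to 8.8% of member UMIs. Without them the same 4 members were called in active IKKβ P301S against non-transgenic mice. Marker lists of T cells, B cells and monocytes or neutrophils took at most 0.0147% of UMIs, with Pax5, Ly6c2, S100a8 and S100a9 at 0. A list of neuronal genes took 2.30%, 1.97%, 2.45% and 1.90% on average in the non-transgenic, P301S, knockout and active IKKβ groups. The microglia markers took less, at 0.919%, 0.865%, 0.888% and 0.764%. The part of neuronal RNA in the results was not tested.

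In the other cell types no member passed the threshold. In 8 types with at least 20 nuclei in every mouse, 112 tests of a member in a type were made for each of 3 comparisons. For P301S against non-transgenic mice 0 were called with edgeR, against 0.0119% of all 92582 tests of a gene in a type, and 16 were higher and 0 lower when p under 0.05 was left unadjusted, against 3.99%. For knockout P301S against P301S mice 0 were called, against 0.0%, with 2 higher and 1 lower, against 8.31%. For active IKKβ P301S against P301S mice 0 were called, against 0.00864%, with 3 higher and 3 lower, against 5.49%.

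Astrocyte-like nuclei held 7 of the 16 higher tests for P301S mice, and 20 of 20 tested members were positive there, with a median log2 fold change of 0.58. Without P301S mouse 3, 11 of 16 tested members were positive and the median was 0.13. Nlrc5 had the lowest p, at 1.79 ± 0.51 (edgeR, unadjusted p = 0.0032, adjusted p = 0.96). Ddx60 had 8.99, 3.67, 4.42 and 11.98 CPM in non-transgenic, 10.1, 4.59 and 41.03 CPM in P301S, 32.3 and 9.86 CPM in knockout and 20.3 and 11.8 CPM in active IKKβ mice. P301S mouse 3 and knockout mouse 1 were the highest, as they were for Trim30a, at 19.6 and 18.3 CPM against 3.06 to 7.85 CPM in the other 9 mice. In oligodendrocyte precursor-like nuclei, Stat2 was higher in knockout P301S than in P301S mice by 1.03 ± 0.27, which did not pass either (adjusted p = 0.46).

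Whether differences in microglia-like nuclei differed from those in all other nuclei of the same mice was tested with an interaction term. For active IKKβ P301S against P301S mice 1 of 40 tested members passed, Rnf213, against 1.1% of 19424 genes. Its difference was larger in microglia-like nuclei by 0.80 ± 0.21 on the log2 scale (edgeR, unadjusted p = 1.1e-04, adjusted p = 0.014). In microglia-like nuclei alone, Rnf213 against non-transgenic mice had a similar 0.81 ± 0.21 but a larger unadjusted p (edgeR, 0.0011). The interaction fit thus gave a smaller p at a similar ratio of change to SE, so its p values may be too small. In the other nuclei Rnf213 had 7.79, 9.81 and 15.4 CPM in P301S mice and 9.07 and 11.4 CPM in active IKKβ mice. The call was kept in 8 of 12 other settings, with adjusted p of 0.012 to 0.26. For P301S against non-transgenic mice 0 members passed, against 0.252% of genes, and for knockout P301S against P301S mice 0, against 0.0515%. The lowest p was that of Nlrc5 in the first of these (1.37, adjusted p = 0.25) and of Mx1 in the second (2.91, adjusted p = 0.18). Single mice changed these calls. In P301S against non-transgenic mice Nlrc5 passed without P301S mouse 2 (adjusted p = 0.044) or non-transgenic mouse 3 (adjusted p = 0.030), and Herc6 without non-transgenic mouse 4 (adjusted p = 0.037). In active IKKβ P301S against P301S mice Nlrc5 passed in place of Rnf213 without active IKKβ mouse 1 (adjusted p = 0.018) or P301S mouse 3 (adjusted p = 0.0079).

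Other genes of the interferon pathway were read from a list of 129 genes by role, of which 125 were in the matrices and 66 were tested in microglia-like nuclei. The 10 ligand genes, among them Ifnb1, Ifna4 and Ifng, were listed at 0 UMIs in microglia-like nuclei. Several genes of the same list that microglia are known to use were listed at 0 as well, so a 0 in these matrices sets no limit on the level of a gene. Of the 5 tested receptor genes and 9 tested kinases and transcription factors, 0 were called in any of the 6 comparisons. At an unadjusted p under 0.05, 3 receptor genes were higher in active IKKβ P301S than in non-transgenic mice, against 13.4% of all genes. Against P301S and knockout P301S mice 2 were higher in each, against 8.72% and 13.2%, and 0 were lower in all 3. Ifnlr1, a receptor gene below the count filter, had 7.93 and 25.4 CPM in active IKKβ mice and at most 2.58 CPM in the others. Of 9 tested genes that limit the response, 0 were called. Without adjustment 3 of these were higher and 0 lower in active IKKβ P301S than in non-transgenic mice.

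Among genes of nucleic acid sensing, of 15 tested, 3 rose in active IKKβ P301S mice against each of the other groups, which were Tank, Traf3 and Ikbke (all genes called, 1.49% against P301S, 1.7% against knockout P301S and 3.62% against non-transgenic mice). Tank, an adaptor of the kinase TBK1 that is also a known NF-κB target, had 45.4 to 73.0 CPM in non-transgenic, 103.2, 96.8 and 139.5 CPM in P301S, 82.9 and 63.7 CPM in knockout and 308.2 and 277.6 CPM in active IKKβ mice. The log2 fold change against P301S mice was 1.30 ± 0.18 (edgeR, adjusted p = 1.5e-04). Traf3, an adaptor in both interferon induction and NF-κB signalling, rose by 1.17 ± 0.21 (adjusted p = 0.0025). Ikbke, the gene of the kinase IKKε that activates IRF3, rose by 2.16 ± 0.52 (adjusted p = 0.034), from 0, 4.92 and 17.4 CPM to 26.9 and 70.9 CPM. The Ikbke call against P301S mice was lost when P301S mouse 1 or 2 or active IKKβ mouse 2 was left out and in 6 of 12 other settings, DESeq2 among them (adjusted p = 0.88). Against knockout P301S mice it was lost without knockout mouse 1, knockout mouse 2 or active IKKβ mouse 2 and in 3 of 11 other settings. The Tank calls were kept in all settings run. Traf3 was lost in 1 setting against P301S mice, and in 2 settings and without knockout mouse 2 against knockout P301S mice.

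Of 28 tested other interferon-induced genes, 2 rose and 1 fell in active IKKβ P301S against P301S mice (all genes called, 1.49%). Apobec3, a cytidine deaminase that restricts retroviruses, had 106.8 to 175.6 CPM in non-transgenic, 119.7 to 233 CPM in P301S and 143.9 and 178.3 CPM in knockout mice. It had 615.8 and 637.6 CPM in active IKKβ mice, a log2 fold change of 1.73 ± 0.20 against P301S mice (edgeR, adjusted p = 1.6e-05). Ly6e, a surface protein that hinders coronavirus entry, rose by 1.05 ± 0.23 (adjusted p = 0.018), while Rtp4 fell by 1.98 on the log2 scale, ± 0.40 (adjusted p = 0.0083). Rtp4 had 31.0, 52.5 and 28.7 CPM in P301S mice and 10.99 and 7.36 CPM in active IKKβ mice. It had 28.5 and 28.8 CPM in knockout mice and 37.9, 28.5, 10.4 and 18.3 CPM in non-transgenic mice. Non-transgenic mouse 3, of the active IKKβ line, thus lay below active IKKβ mouse 1. The Ly6e call was lost without P301S mouse 1, P301S mouse 2 or active IKKβ mouse 1, and that of Rtp4 without P301S mouse 2 or active IKKβ mouse 2. Each was also lost in 3 of 13 other settings. Against non-transgenic mice 6 rose and 0 fell (all genes called, 3.62%), which were Apobec3, Ly6e, Lgals3bp, Cd274, Tor3a and B2m. Of these calls, Ly6e was lost without active IKKβ mouse 1 (adjusted p = 0.053) and Cd274 with thinned sums (adjusted p = 0.14), and the others were kept in all settings run. B2m, the light chain of MHC class I, rose by 1.12 ± 0.23 (adjusted p = 0.0049), and Cd274, the checkpoint ligand PD-L1, by 1.56 ± 0.29 (adjusted p = 0.0023). Against knockout P301S mice 4 rose and 0 fell (all genes called, 1.7%), which were Apobec3, B2m, Cd274 and Ly6e. There Apobec3 was kept in all settings run, while B2m and Cd274 were each lost in 3 of 11 runs without 1 mouse and Ly6e in 5, with either knockout mouse left out among them for all 3 genes. In other settings B2m was lost in 2 of 12, Cd274 in 6 and Ly6e in 6. In P301S against non-transgenic mice and both knockout comparisons without active IKKβ, 0 of the 66 tested genes were called. Of all 9009 genes, 0.0444% were called in the first and 0.0% in both others, so the 0 does not set these genes apart.

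**Figure D5:**
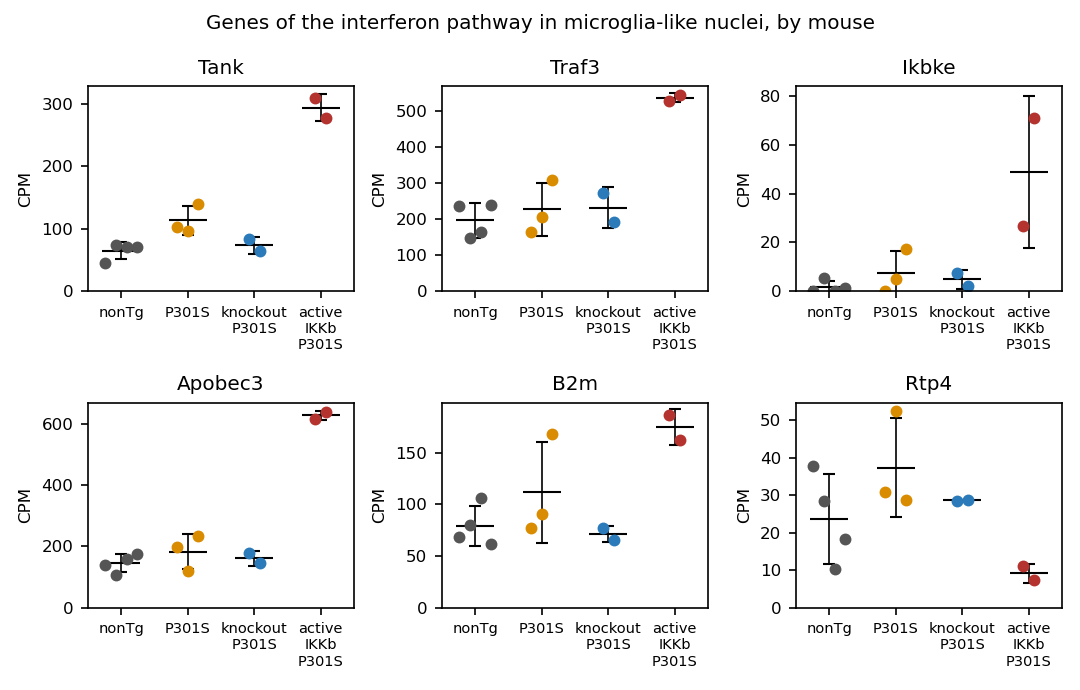
Level in microglia-like nuclei (CPM, axes from 0) of 6 interferon pathway genes that are not members, with 1 point for each mouse by genotype, a line at the group mean and bars of 1 SD that end at 0. Tank, Traf3 and Apobec3 are higher in both active IKKβ mice than in the other 9 mice, with Apobec3 at 615.8 and 637.6 CPM, and Rtp4, at 10.99 and 7.36 CPM, is lower there than in all 3 P301S mice.

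Close paralogs limit some values. The Oas, Ifit, Gbp, Slfn and Trim30 families hold near copies, and reads that match several loci may be lost or divided between them. With 2 mice in the knockout and active IKKβ groups, a single mouse can decide a call.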

How the data were processed

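The deposited files were raw UMI counts per gene and barcode for each mouse, which the authors made with the 10x 3′ v3 kit. Per the submitters' processing notes, Cell Ranger 3.1.0 and mm10 were used, and per the methods unspliced reads were counted. Nuclei were kept if they had 300 to 8000 genes and no more than 5% mitochondrial UMIs. Doublets (9474) were marked per library from simulated doublets among 20 neighbours, at 0.8% per 1000 barcodes. Scanpy 1.11.5 scaled nuclei to 10000 UMIs, and 2000 variable genes, 15 components, 20 neighbours and Leiden at a resolution of 0.1 gave 15 clusters. A cluster was named when at least 3 markers were raised 2-fold and led, and details of naming were set after the clusters were seen.

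Counts were summed per mouse and type and tested with edgeR 4.0.16 (quasi-likelihood, TMM, filterByExpr, all 11 mice, 1 term per genotype, R 4.3.3), with adjustment over all genes. SE is the log2 fold change over the square root of F. DESeq2 1.42.0 was an alternative. The code was tested on simulated data. Each sample is a separate mouse. Endothelial-like and ependymal-like sums, with under 20 nuclei in some mice, were not tested.

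Members and lists were chosen with earlier results of these data known. The member roles, the limit of 10 UMIs and the alternatives of single lines, of leaving out 2 mice together and of leaving out macrophage-marked nuclei were chosen after seeing the data. Named with values were members called in any comparison, the 6 with the lowest p in each microglial comparison, the 8 with the highest mean CPM there and the 3 with the most UMIs in each type. Pathway genes were named where called, and Ifnlr1 after its values were seen. Usp18, Mx1, Oas1a, Isg15, Ifit1, Rsad2, Irf7 and the members of the rich nuclei were named after their values were seen. RefSeq promoters were of GRCm38.p6, the build of mm10, and intervals cover counting error only.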

Additional observations from a re-analysis of the deposited data

Results flagged for a closer look

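In 3 of the 29 groups of 4 non-transgenic values examined, 1 mouse stood apart from the other 3 by the Dixon criterion, which chance does in about 1 in 20 groups. Each time this was non-transgenic mouse 3. Its member share was 0.103% in microglia-like nuclei, against 0.0797% to 0.0822% in the other 3, and 0.103% in fibroblast-like nuclei, against 0.0724% to 0.0761%. Its Ddx58 level in microglia-like nuclei was 60.1 CPM, against 21.4 to 27.8 CPM. Without this mouse, Ddx58 joined the 4 members called in active IKKβ P301S against non-transgenic mice, at 1.0 (edgeR, adjusted p = 0.036).

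The difference in Rnf213 between active IKKβ P301S and P301S mice was larger in microglia-like nuclei than in the other nuclei by 0.80 on the log2 scale, by the interaction test. The p values of that test may be too small, as given above. The call was lost without P301S mouse 2, P301S mouse 3 or either active IKKβ mouse.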

How the results depend on the processing

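Most of the values held their direction and their side of the threshold. Active IKKβ P301S against non-transgenic mice called 4 members beside 326 of 9009 genes. This became 2 with DESeq2 (255 genes) and 1 with the breeding line as a covariate (193). It became 1 with doublets kept (245 of 9585) and 2 with thinned sums (218 of 6983). It was 6 with no count filter (530 of 20591). With at least 50 UMIs over the 11 mice it was 5 (346 of 11091, Slfn2 added), and it was 1 to 5 when 1 mouse was left out (160 to 408 genes). With no count filter, 4 members were called in P301S against non-transgenic mice, 1 in knockout P301S against non-transgenic mice (Sp100), 1 in active IKKβ against knockout P301S mice (Nlrc5) and 4 in other types (Trim30a, Ddx60, Nlrc5 and Ifit2 in astrocyte-like nuclei), all in place of 0. The cause was not tested. Within the active IKKβ line, 1 was called in P301S against non-transgenic mice (Sp100, beside 58 of 11839 genes), where P301S mouse 3 alone stands for its group and is assumed to vary like the other mice. Fitting only the groups compared gave 1 in active IKKβ against knockout P301S mice (Nlrc5, beside 234 of 10459 genes). Without P301S mouse 3 and knockout mouse 1 together, 2 were called in active IKKβ P301S against P301S mice (Nlrc5 and Rnf213, beside 215 of 9327 genes) and 1 against knockout P301S mice (Rnf213, beside 145 genes). Leaving out 1 mouse gave 0 to 1 in P301S against non-transgenic mice, 0 to 1 in active IKKβ against P301S mice and 0 to 2 for the interaction.

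The difference in member share (percentage points) was 0.0632 for P301S against non-transgenic mice and -0.0156 for active IKKβ P301S against P301S mice within the active IKKβ line. For knockout P301S against non-transgenic mice it ranged from -0.00469 to 0.0438 when 1 mouse was left out and was -0.00469 without P301S mouse 3 and knockout mouse 1. For active IKKβ P301S against non-transgenic mice it was 0.0410 with doublets kept. The difference between the same groups in the percent of nuclei was 14.0 for at least 2 member UMIs, 1.45 for at least 5 and 2.38 after thinning to 500 UMIs.

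Single members that changed sign were all short of the threshold. For knockout P301S against P301S mice, Nlrc5 became 0.52 with the breeding line and 0.19 with age as a covariate (-1.62 to 0.79 when 1 mouse was left out). Eif2ak2 became 0.015 with thinned sums and 0.047 in the floxed line (-0.73 to 0.045), and Ddx58 0.014 with age. For active IKKβ P301S mice, Nlrc5 was -0.011 with the breeding line and -0.12 within the active IKKβ line against P301S mice, and -0.53 with the breeding line against knockout P301S mice. For knockout P301S against non-transgenic mice, leaving out 1 mouse gave -0.097 to 1.0 for Stat2 and -0.99 to 2.40 for Oasl2. Without P301S mouse 3 and knockout mouse 1 together, Stat2 was -0.11, Oasl2 -0.99 and Parp14 -0.0036.

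The labels do not say that equal title numbers mark a litter or day. Some equal-numbered mice of 1 line share an age, namely non-transgenic mouse 3 and active IKKβ mouse 1 (10.85 months), non-transgenic mouse 4 and active IKKβ mouse 2 (9.8 months) and mouse 2 of the non-transgenic and P301S groups (10.03 months), with correlations of -0.020, 0.078 and 0.061. Over 22 same-numbered pairs, deviations from group means correlated at -0.078 to 0.142, and 1 pair was over 0.1. With the replicate number as a block, 4 members were called in active IKKβ P301S against non-transgenic mice, as without it. Depth limits the 19 members with few UMIs, and 2 mice in the knockout and active IKKβ groups limit every call that involves these groups.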
